A study of Ovis aries with 6 samples.

Results

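The genes described here are 33 nuclear receptor genes and 4 genes of nuclear receptor coregulators, 37 in all, chosen by name. Each was looked up by the gene name in its row ID, and all 37 were found among the 26067 features of the deposited count and TPM tables. By its labels the RNA came from the pituitary of sheep (Ovis aries), and it was read as full-length complementary DNA on Oxford Nanopore devices. The study's design sets small-tailed Han sheep, a breed of high reproduction, beside Wadi sheep, a breed of lower reproduction. The labels name 6 libraries, C1 to C6, all with the tissue pituitary, and give no breed, age, sex or treatment for any of them. Breeds were for this reason not compared, and every library stands by itself with no replicate.

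Nuclear receptors are transcription factors, many of which are switched on by a small fat-soluble ligand such as a steroid, thyroid hormone, a retinoid or a fatty acid. They bind DNA singly or in pairs, and many pair with a retinoid X receptor. Coactivators such as the NCOA proteins join the receptor when ligand is bound, and corepressors such as NCOR1 join several receptors when it is not. In the pituitary some of these receptors carry the feedback of gonadal, adrenal and thyroid hormones onto the cells that make gonadotropins, prolactin, corticotropin and thyrotropin.

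A count is an estimated number of reads assigned to a gene, rounded to a whole number, and CPM is that count per 1000000 gene counts of its library. C6 was the shallowest library with 1981648 counts and C2 the deepest with 2732915, and a single count equalled between 0.366 and 0.505 CPM. The 7 pituitary hormone genes took 14.2, 30.0 and 4.71% of the counts in C4 to C6. In C1 to C3 they took 0.0139, 0.00472 and 0.00503%, with 2 of the 7 genes at 0 in each, and 6 of 10 pituitary lineage factor genes were also at 0 in each. All 12 cerebellar granule and Purkinje cell genes exceeded 10 CPM in C1 to C3, against 3, 3 and 4 of them in C4 to C6. These 3 libraries therefore went against their tissue label, and results are given over all 6 libraries and over C4 to C6. The 5 smooth muscle genes summed to 7576 CPM in C4 and to at most 260.3 CPM elsewhere, and the 5 oligodendrocyte and Schwann cell genes to 12215 CPM in C6 and at most 181 CPM elsewhere. In bulk tissue, fewer cells of a type and less RNA per cell cannot be told apart.

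The receptor genes covered a wide range of counts. In a single library between 18 and 22 of the 37 genes reached 10 counts, and 15 genes did so in every library. A minimum of 60 counts summed over the 6 libraries was set for testing, which 21 genes met and 16 did not. A chi-square test on reads asked of each feature with enough counts whether its level was equal in all libraries, adjusted over all features (Benjamini-Hochberg). It was called as differing at an adjusted p under 0.05 with a ratio of at least 2 between its highest and lowest CPM. Such a test compares these libraries, not conditions.

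**Figure D1:**
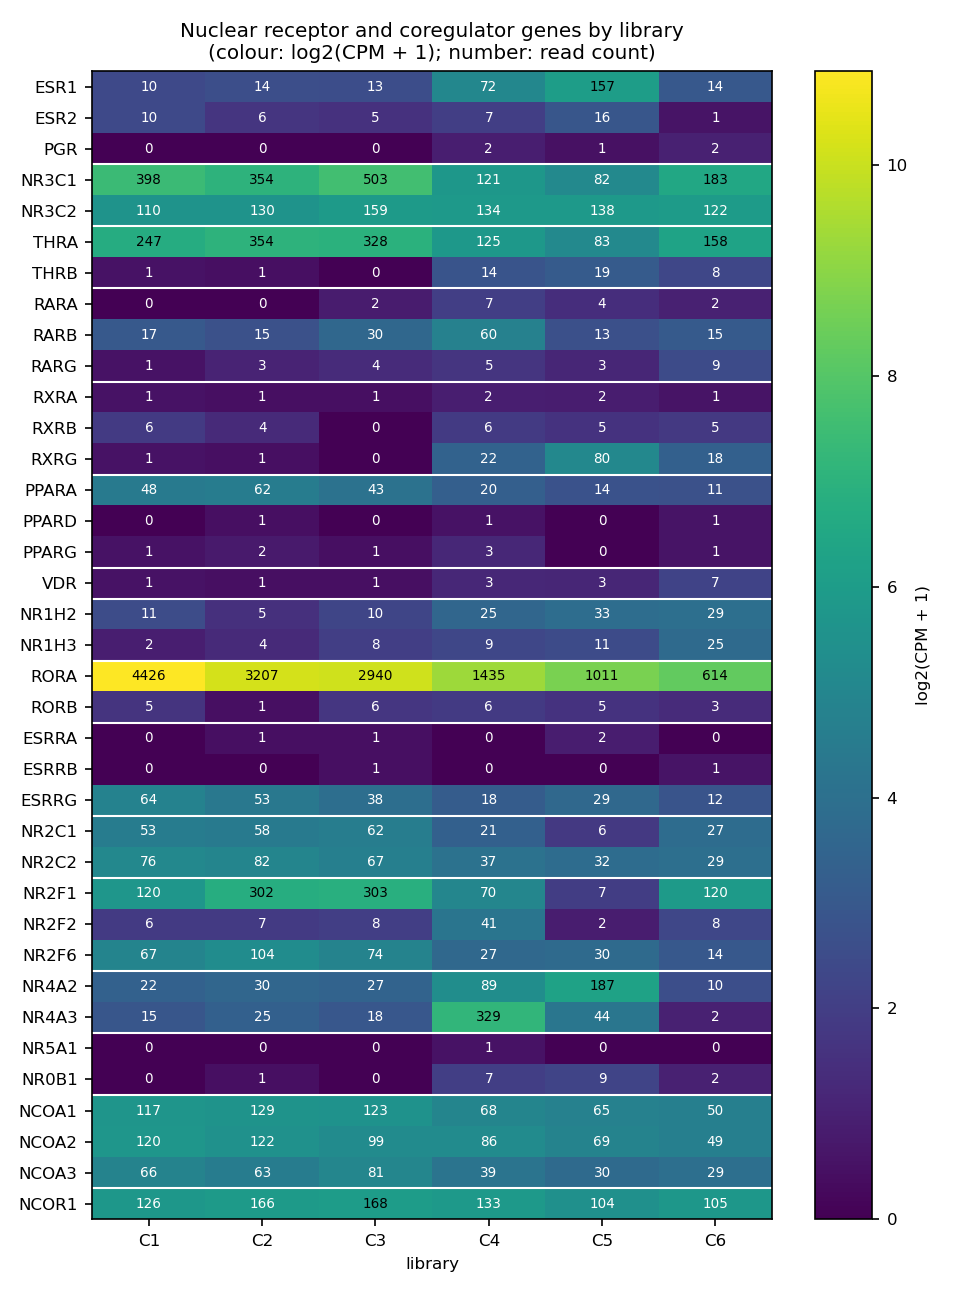
Colour gives log2(CPM + 1) of the 37 genes (rows, white lines between receptor classes) in the libraries C1 to C6 (columns), and the number in each cell is the read count. RORA is the brightest row, with 614 to 4426 counts, and ESR1, RXRG, NR4A2 and NR4A3 are brighter in C4 and C5 than in C1 to C3.

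Of the 21 genes tested, 18 were called, against 80.9% of the 13248 features tested. The median ratio was 5.39 over the 21 genes and 4.31 over all features, and a ratio of at least 4 was reached by 14 of the 21 genes against 52.7% of all features. The share of calls thus stayed near the background. The receptors accounted for 16 calls among 17 tested, and the coregulators for 2 among 4. Among C4 to C6, with at least 30 counts required, 12 of 23 genes were called against 40.1% of all features, and the median ratios were 2.03 and 1.88. All 12 were receptors, which made up 19 of the 23 genes tested. Among C1 to C3, 1 of 18 genes was called, against 11.0% of all features. Genes that passed a count minimum through the library where they were high had to differ, so these counts describe the genes tested and not all 37.

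Of the 21 genes tested, 11 were called with their highest CPM in C1, C2 or C3, as were 43.1% of all features tested. By library, C1 to C6 were the highest for 4, 3, 4, 3, 3 and 1 of the called genes, against 17.1, 12.3, 13.6, 11.4, 9.42 and 17.0% of all features tested. The hormone genes took up much of the total in C5, so the scale matters for low values there. On the log2 scale, leaving the hormone genes out of the totals raised all levels by 0.51 in C5 and by 0.22 in C4. TMM factors moved C5 by 0.21 and C3 by -0.10, and DESeq2 size factors moved them by 0.31 and -0.16. The highest library under CPM was the same in all 3 of these scalings and in the authors' TPM for 12 of the 21 genes, and the exceptions are named below.

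**Figure D2:**
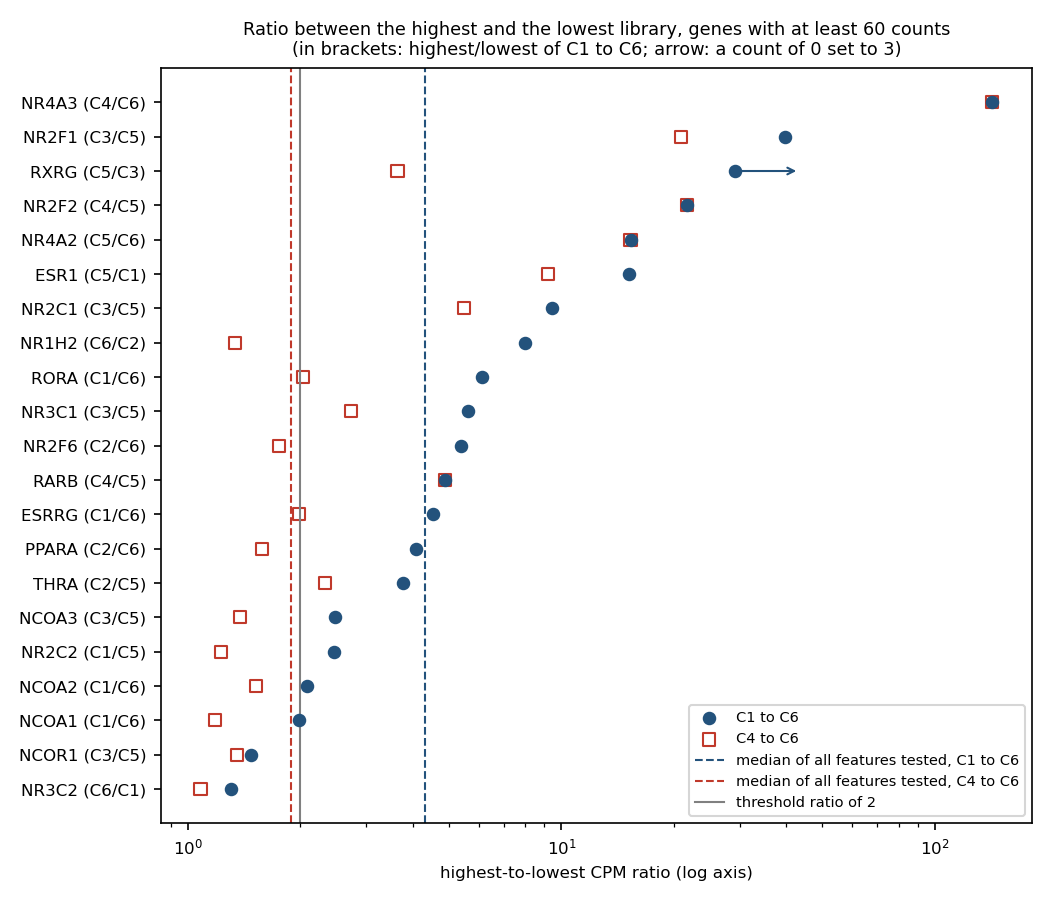
The ratio of the highest to the lowest CPM (log axis) is plotted for the 21 genes tested, over C1 to C6 (filled circles) and over C4 to C6 (open squares), with the medians of all features tested as dashed lines and the threshold of 2 as a grey line. NR4A3 has the highest ratio, 143, and the square and circle coincide for NR4A3, NR4A2, NR2F2 and RARB, whose highest and lowest libraries are both among C4 to C6.

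ESR1 encodes oestrogen receptor alpha, through which oestradiol acts on gonadotrophs and lactotrophs. It stood at 4.29 (C1), 5.12 (C2), 4.92 (C3), 31.5 (C4), 64.9 (C5) and 7.06 CPM (C6). C5 was high, C4 intermediate, and C6 lay near C1 to C3. The ratio of C5 to C4 was 2.06 (95% exact interval 1.55 to 2.76) and that of C4 to C6 was 4.46 (2.49 to 8.57), for counting error only. C6 and C1 were not separated, with a ratio of 1.65 (0.681 to 4.15). The order C5, C4, C6 was also that of the share of hormone gene counts, whose part in the level of ESR1 was not tested. ESR1 was called over all 6 libraries (chi-square adjusted p = 6.77e-78) and among C4 to C6 (adjusted p = 5.51e-22), and C5 was highest under every scale used.

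ESR2, the gene of oestrogen receptor beta, had 10 (C1), 6 (C2) and 5 counts (C3) and 7 (C4), 16 (C5) and 1 counts (C6), too few for the test. Because both genes are read in the same library, their balance does not depend on scaling. ESR1 made up 50.0% of the counts of the pair in C1 (95% Wilson interval 29.9 to 70.1%), 70.0% in C2 and 72.2% in C3, and 91.1 (C4), 90.8 (C5) and 93.3% (C6). The intervals of C4 to C6 lay above that of C1. Those of C2 and C3 reached 85.5 and 87.5%, so that C3 overlapped C4, C5 and C6, and C2 overlapped C4 and C6. Such a share of counts is compared between libraries only, since it is not per length. In TPM the ESR1 share was at least 91.7% in every library. PGR, the progesterone receptor gene and a known target of oestrogen receptors, had at most 2 counts in any library and 0 in C1 to C3. Of 6 known oestrogen receptor targets, 3 had enough counts and all 3 were called, which is near the 80.9% of all features. XBP1, a factor of the secretory pathway, was highest in C5 at 170.3 CPM, CTSD, a lysosomal protease, in C6 at 93.4 CPM, and IGFBP4, a growth factor binding protein, in C4 at 74.0 CPM.

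NR3C1 encodes the glucocorticoid receptor, which mediates cortisol feedback on corticotrophs and is present in most cell types. Its levels were 171 (C1), 129.5 (C2) and 190.3 CPM (C3), then 53.0 in C4, 33.9 in C5 and 92.3 in C6. All of C1 to C3 lay above all of C4 to C6, and within the latter the order was C6, C4, C5. The ratio of C6 to C4 was 1.74 (95% exact interval 1.38 to 2.21) and that of C4 to C5 was 1.56 (1.17 to 2.09). C3 was the highest library under every scale.

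NR3C2, the mineralocorticoid receptor gene, had the smallest ratio of the 21 genes tested under CPM, but not under the other scales. It ranged from 47.2 CPM in C1 to 61.6 CPM in C6, a ratio of 1.31 (95% exact interval 1.00 to 1.70), and was not called (chi-square adjusted p = 0.121). Among C4 to C6 its ratio was 1.08 (0.839 to 1.39). Its ratio over the 6 libraries was 1.40 under TMM, 1.55 under DESeq2 size factors and 1.73 without the hormone genes in the totals, with C5 highest in each, and NCOR1 had smaller ratios there, at 1.22, 1.14 and 1.26. In the authors' TPM NR3C2 ranged from 40.0 in C1 to 114 in C3, a ratio of 2.84. The mineralocorticoid receptor gene made up 21.7, 26.9 and 24.0% of the counts of the pair in C1 to C3. Its share was 52.5% in C4 (95% Wilson interval 46.4 to 58.6%), 62.7% in C5 (56.2 to 68.8%) and 40.0% in C6 (34.7 to 45.6%). The intervals of C4 to C6 all lay above those of the other 3 libraries. The same holds in TPM for the percentages themselves, at 39.1, 48.4 and 48.8% against 66.5, 81.1 and 56.6%.

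Of 8 known glucocorticoid receptor targets, 6 had enough counts and all 6 were called, against 80.9% of all features, with their highest levels in different libraries. Their median ratio was 8.25, against 4.31 over all features. FKBP5, a chaperone that dampens glucocorticoid receptor signalling, was at 50.6 (C1), 61.8 (C2) and 60.9 CPM (C3) and at 354 (C4), 191 (C5) and 158 CPM (C6). The 3 libraries with the highest FKBP5 were the 3 with the lowest NR3C1. KLF9, another target, was at 191 (C1), 187 (C2), 307 (C3), 99.8 (C4), 49.6 (C5) and 170 CPM (C6). By CPM the libraries had the same order for KLF9 as for NR3C1. The part of NR3C1 in the levels of its targets was not tested. DUSP1, a phosphatase that switches off MAP kinases and an early response gene, reached 313 CPM in C4 and at most 42.1 CPM elsewhere. SGK1, a kinase that regulates ion channels, ran the other way between C4 and C1, at 7.00 CPM and 93.9 CPM, and was lowest in C5 at 3.72 CPM. HSD11B1, the enzyme that regenerates active glucocorticoid, had 58 counts in C5 and 2 in C2, a ratio of 32.8 (95% exact interval 8.67 to 277). HSP90AA1 and HSP90AB1, heat shock protein genes whose products hold steroid receptors ready for ligand, had ratios of 1.86 and 1.70. Of the 8 receptor chaperone genes 3 were called, FKBP5, PTGES3 and BAG1, and the median ratio of 1.86 was below that of all features.

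THRA and THRB encode the thyroid hormone receptors. In rodents the beta receptor carries most of the feedback of thyroid hormone on thyrotropin. THRA stood at 106 (C1), 129.5 (C2) and 124 CPM (C3), and at 54.7 (C4), 34.3 (C5) and 79.7 CPM (C6). It was highest in C2 under CPM and the 3 other count scalings, but in C6 in TPM, where it varied only from 2.32 to 4.20. Its 2 lowest libraries under CPM were C5 and C4, with a ratio of C4 to C5 of 1.59 (95% exact interval 1.20 to 2.13). THRA overlaps NR1D1, a clock gene, in the RefSeq gene table, and since no source used here gives the use of strand in counting, their reads may have been shared.

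THRB had 1 (C1), 1 (C2) and 0 counts (C3) and 14 (C4), 19 (C5) and 8 counts (C6). The 0 in C3 allows up to 3 counts, or 1.14 CPM, and C5 was at 7.85 CPM. The ratio of C5 to the 1 count of C1 was 18.3, with a wide 95% exact interval of 2.91 to 761. C4 to C6 were not separated from each other (ratio of C5 to C6 1.95, 95% exact interval 0.813 to 5.14). THRB made up 10.1% of the counts of the pair in C4, 18.6% in C5 (95% Wilson interval 12.3 to 27.3%) and 4.82% in C6 (2.46 to 9.22%). In C1 to C3 the share was 0.403, 0.282 and 0%, with upper limits of at most 2.25%. In the authors' TPM the THRB share was larger, at 36.8% in C4, 55.1% in C5 and 20.9% in C6 against at most 2.12% elsewhere. DIO2, which makes active thyroid hormone, was at 10.3, 12.8, 14.8, 106, 183 and 41.4 CPM in C1 to C6, in that order. CRYM, which binds the hormone in the cell, reached 46.3 CPM in C5, its highest library. Of the known targets, KLF9 was highest in C3 at 307 CPM and lowest in C5 at 49.6 CPM, though highest in C2 in TPM, and NRGN was highest in C6 at 26.2 CPM.

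**Figure D3:**
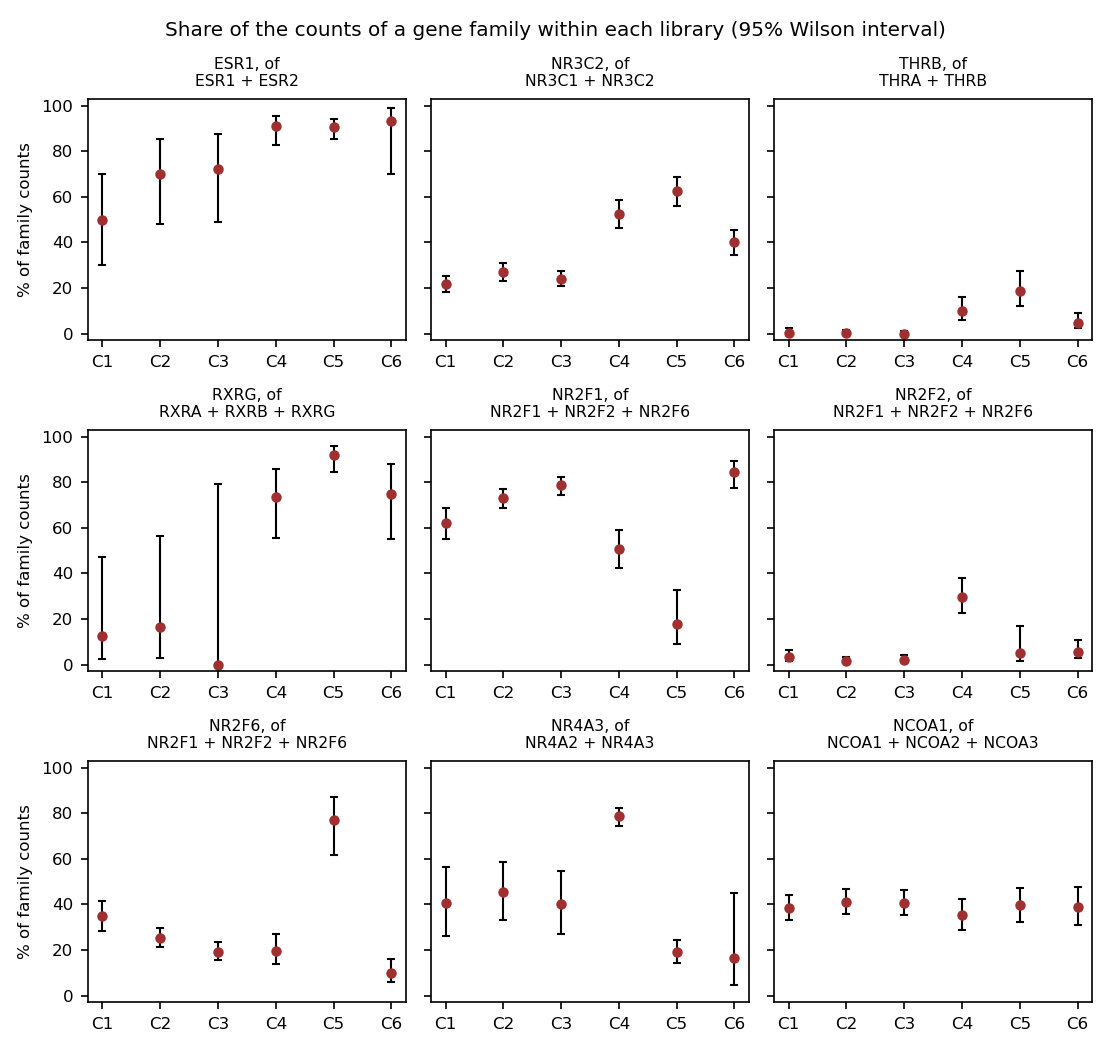
Each panel shows the percentage of the counts of a gene family that went to the named gene, in each of the libraries C1 to C6, with 95% Wilson intervals for counting error. The mineralocorticoid receptor share is higher in C4 to C6 than in C1 to C3, NR2F6 leads its family in C5 alone of the 6 libraries, and the NCOA1 share stays between 35.2 and 41.1%.

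RARB led the retinoic acid receptors in counts and in TPM in all 6 libraries. RARB, which is also induced by retinoic acid, was at 7.29 (C1), 5.49 (C2), 11.4 (C3), 26.3 (C4), 5.37 (C5) and 7.57 CPM (C6). C4 was highest under every scale. By CPM it stood apart from the rest, by a ratio of 2.31 to C3 (95% exact interval 1.47 to 3.72) and of 4.89 to C5 (2.65 to 9.71). RARA had 0 to 7 counts and RARG 1 to 9 counts in a library, below the minimum. RARB took 57.7 to 94.4% of the counts of the 3 genes, with wide intervals.

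Among the retinoid X receptors, the common partners of other nuclear receptors, RXRG was the gene with enough counts for the test, and it was called. It had 1 (C1), 1 (C2) and 0 counts (C3) and 9.63 (C4), 33.1 (C5) and 9.08 CPM (C6). The ratio of C5 to the 1 count of C1 was 77.1 (95% exact interval 13.4 to 3083), and C5 was 3.43-fold higher than C4 (2.12 to 5.78). C4 and C6 were not separated, with a ratio of 1.06 (0.543 to 2.10). RXRA and RXRB had 1 to 2 and 0 to 6 counts in a library. RXRG made up 73.3, 92.0 and 75.0% of the counts of the family in C4 to C6. In C1 to C3 the family had 8, 6 and 1 counts in all, too few to give a share of use. With so few counts of RXRA and RXRB, levels of the usual partner genes could not be compared between libraries.

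Genes of retinoid supply and response had their highest level in different libraries. ALDH1A1 and ALDH1A2, which make retinoic acid, were highest in C5 at 438 and 78.1 CPM. CRABP1 and CRABP2, which carry retinoic acid in the cell, and DHRS3, which reduces retinal, were highest in C6 at 86.3, 33.8 and 142 CPM. TGM2, a known retinoid target, was highest in C4 at 114 CPM, as was RARB. SRD5A1, a steroid 5-alpha-reductase gene, was at 203 (C1), 195 (C2) and 218 CPM (C3), 20.1 and 13.2 CPM in C4 and C5, and 202 CPM in C6. Its highest library changed with the scale, from C3 to C1 or C6. In all, 11 of 12 tested genes of ligand transport and metabolism were called, against 80.9% of all features, with a median ratio of 16.6 against 4.31. Of these, 5 were highest in C5, 5 in C6 and 1 in C3, where 9.42, 17.0 and 13.6% of all features were called and highest.

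The lipid-sensing receptors differed in their direction. PPARA, a regulator of fatty acid oxidation, was at 20.6 (C1), 22.7 (C2) and 16.3 CPM (C3) and at 8.75 (C4), 5.79 (C5) and 5.55 CPM (C6). Every one of the first 3 values lay above every one of the last 3, and C2 was highest under every scale. Among C4 to C6 PPARA was not called (chi-square adjusted p = 0.423). PPARD and PPARG had at most 3 counts in any library. NR1H2, a liver X receptor gene whose product responds to oxidised cholesterol, ran opposite to PPARA. It was at 4.72 (C1), 1.83 (C2) and 3.78 CPM (C3) and at 10.9 (C4), 13.6 (C5) and 14.6 CPM (C6). Its highest library was C6 under CPM and C5 under the 3 other count scalings and in TPM, and the C4 to C6 values were not separated (ratio 1.34, 95% exact interval 0.756 to 2.38).

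NR1H3, the other liver X receptor gene, had 2, 4, 8, 9, 11 and 25 counts in C1 to C6, in that order. With 59 counts in all it missed the minimum by 1. Among C4 to C6 it was called, with C6 at 12.6 CPM, 3.20-fold above C4 (95% exact interval 1.45 to 7.80; chi-square adjusted p = 0.00173). C6 was also the library with the highest level of the oligodendrocyte and Schwann cell genes and of SCD, a fatty acid desaturase and known liver X receptor target, at 398 CPM against 23.6 to 97.3 CPM elsewhere. Their part in the level of NR1H3 was not tested. The other known targets with enough counts, ABCA1 and LPCAT3, were highest in C1 at 53.6 and 49.3 CPM. VDR, the vitamin D receptor gene, had 1 count in each of C1 to C3 and 3 (C4), 3 (C5) and 7 counts (C6). Of the known PPAR targets, PDK4, which restrains glucose oxidation, was at 294 CPM in C4 and 292 CPM in C6 against 42.5 to 93.1 CPM elsewhere. PLIN2, a lipid droplet protein, was highest in C4 at 21.9 CPM and ACADM, an enzyme of fatty acid oxidation, in C6 at 142 CPM.

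RORA encodes an orphan receptor that Purkinje cells of the mouse need for their development. It was the gene with the most counts of the 37 in every library, at 1898 (C1), 1173 (C2), 1112 (C3), 628 (C4), 418 (C5) and 309.8 CPM (C6). The order ran from C1 down to C6, with C1 highest and C6 lowest also under every scaling and in TPM. The ratio of C1 to C6 was 6.13 (95% exact interval 5.63 to 6.68). C2 and C3 were the closest neighbours (ratio 1.05, 1.00 to 1.11), and the next gaps were 1.77 from C3 to C4, 1.50 from C4 to C5 and 1.35 from C5 to C6. RORA alone made up 72.0% of the counts of the 37 genes in C1 and 36.4% in C6. The other 36 genes together took 0.0738, 0.0769, 0.0826, 0.0705, 0.0531 and 0.0541% of the gene counts in C1 to C6, in that order. The 12 cerebellar genes summed to 5475 (C1), 5648 (C2) and 5217 CPM (C3) and to 233 (C4), 305 (C5) and 223 CPM (C6), and their part in the level of RORA was not tested. RORB had 1 to 6 counts.

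ESRRG, an oestrogen-related receptor of energy metabolism that binds no oestrogen, was at 27.4 (C1), 19.4 (C2) and 14.4 CPM (C3) and 7.88 (C4), 12.0 (C5) and 6.06 CPM (C6). C1 was highest under every scale, and among C4 to C6 the gene was not called (chi-square adjusted p = 0.142). ESRRA and ESRRB had at most 2 counts in any library. The testicular receptor genes NR2C1 and NR2C2, orphan receptors that act mostly as repressors, both had their lowest CPM in C5. NR2C1 was at 22.7 (C1), 21.2 (C2) and 23.5 CPM (C3) and at 9.19 (C4), 2.48 (C5) and 13.6 CPM (C6). The 6 counts of C5 set it apart, with C6 5.49-fold higher (95% exact interval 2.22 to 16.3). NR2C2 was at 32.6 (C1), 30.0 (C2) and 25.4 CPM (C3) and within 13.2 to 16.2 CPM in the others, which were not separated. The highest library of NR2C1 was C1 under TMM and DESeq2 scaling, and that of NR2C2 was C4 in TPM.

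The COUP transcription factors, orphan receptors of development, split into 3 patterns. NR2F1, which patterns the nervous system in the mouse, was at 51.5 (C1), 110.5 (C2), 115 (C3), 30.6 (C4), 2.89 (C5) and 60.6 CPM (C6). C5 was far below the others, at 7 counts, and C6 stood 20.9-fold above it (95% exact interval 9.85 to 53.2). NR2F1 was also the gene called among C1 to C3, where C3 exceeded C1 by 2.23-fold (1.80 to 2.78). Its highest library was C2 under TMM and DESeq2 scaling. NR2F2, a gene of veins and connective tissue in the mouse, was at 17.9 CPM in C4 and between 0.827 and 4.04 CPM elsewhere, 4.45-fold above C6 (2.06 to 11.0). C4 was also the library in which all 5 smooth muscle genes, 4 of 6 tested fibroblast and pericyte genes and 3 of 5 tested endothelial genes were highest. The 7 fibroblast and pericyte genes in the table summed to 2519 CPM in C4 and to 111 to 1108 CPM elsewhere, and the 6 endothelial genes in the table to 189 CPM and to 31.8 to 156 CPM. The part of these genes in the level of NR2F2 was not tested. NR2F6 was at 28.7 (C1), 38.1 (C2) and 28.0 CPM (C3) and at 11.8 (C4), 12.4 (C5) and 7.06 CPM (C6), with C2 highest under every scale.

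Within each library, the counts of the 3 COUP genes were divided differently. NR2F1 took 62.2, 73.1, 78.7 and 84.5% in C1, C2, C3 and C6, but 50.7% in C4 and 17.9% in C5 (95% Wilson interval 8.98 to 32.7%). NR2F2 took 29.7% in C4 (22.7 to 37.8%) and 1.69 to 5.63% in the others. NR2F6 took 76.9% in C5 (61.7 to 87.4%), against 9.86 to 34.7% in the others. In TPM it took 78.1% in C5 and 4.12 to 15.3% in the others. C4 was thus set apart by NR2F2 and C5 by the lack of NR2F1, in shares that no library scaling factor can alter. The 5 astrocyte and pituicyte genes in the table summed to 467, 560.2, 659, 51.7, 25.6 and 677 CPM in C1 to C6, in that order, and their part in the level of NR2F1 was not tested.

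**Figure D4:**
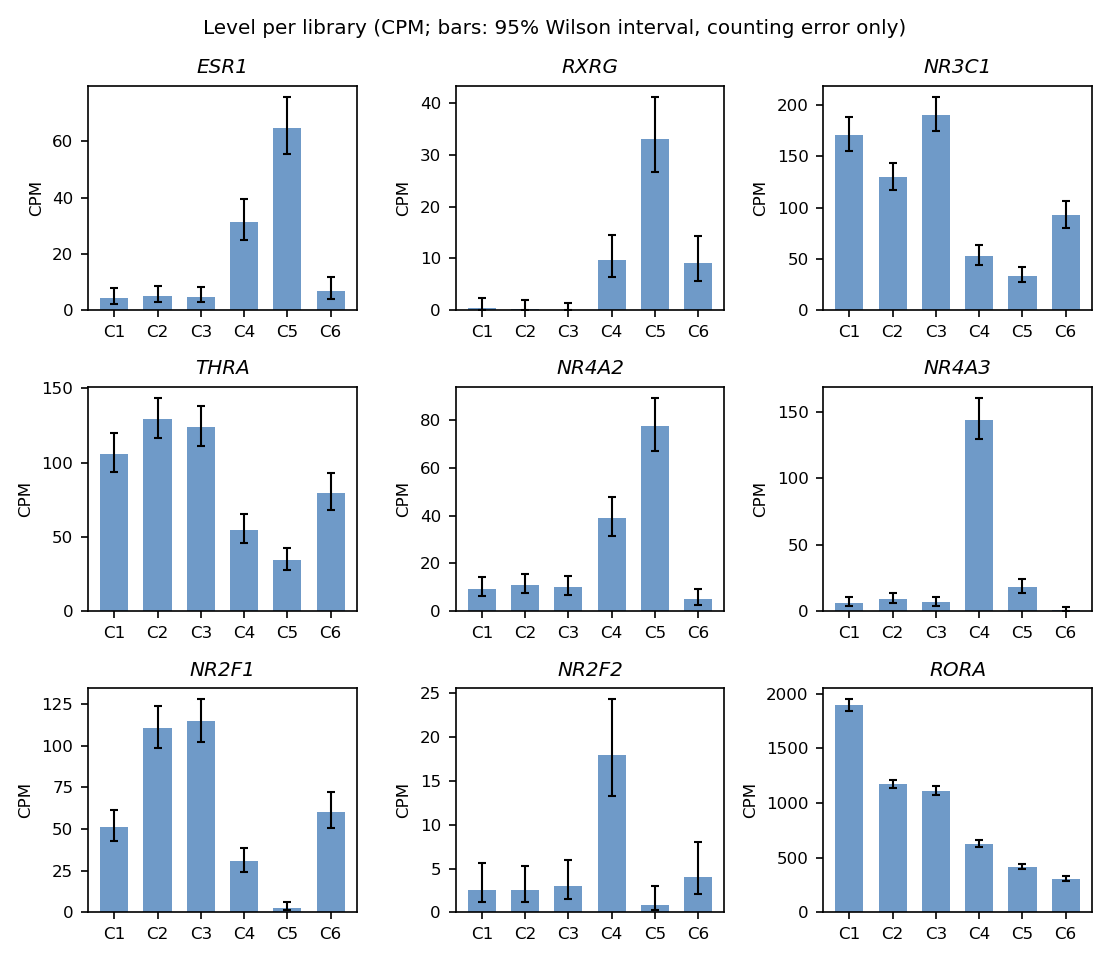
Bars give the CPM of 9 receptor genes in the libraries C1 to C6, from 0, with 95% Wilson intervals for counting error only. ESR1, RXRG and NR4A2 are highest in C5, NR4A3 and NR2F2 in C4, and RORA in C1, and NR2F1 is lowest in C5 at 2.89 CPM.

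The NR4A receptors are orphan receptors whose genes are switched on within a short time of a stimulus, and in corticotrophs of rodents they act on the POMC gene. NR4A3 was at 6.43 (C1), 9.15 (C2) and 6.81 CPM (C3), and at 144 CPM in C4, 18.2 in C5 and 1.01 in C6. C4 was higher than every other library, by 7.92-fold over C5 (95% exact interval 5.77 to 11.1) and by 143-fold over the 2 counts of C6 (39.2 to 1183). NR4A2 was at 9.43 (C1), 11.0 (C2) and 10.2 CPM (C3) and at 39.0 (C4), 77.3 (C5) and 5.05 CPM (C6). By counts it had the opposite order to NR4A3 in the top libraries, C5 being 1.98-fold above C4 (1.53 to 2.58). In TPM the order was reversed, at 27.6 in C4 and 6.69 in C5. NR4A2 overlaps GPD2, an enzyme gene of mitochondria, in the RefSeq gene table, with the same uncertainty on strand as for THRA. NR4A1, the third gene of the family, had 4 (C1), 0 (C2) and 2 counts (C3) and reached 106 (C4), 248 (C5) and 11.6 CPM (C6).

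NR4A3 took 78.7% of the counts of NR4A2 and NR4A3 in C4 (95% Wilson interval 74.5 to 82.4%) and 19.0% in C5 (14.5 to 24.6%). It took 40.0 to 45.5% in C1 to C3. C6 was the library with the fewest counts of all 3 genes among C4 to C6, with 10 of NR4A2, 2 of NR4A3 and 23 of NR4A1. By counts, NR4A3 was highest in C4, and NR4A2 and NR4A1 were highest in C5. In TPM the NR4A3 share was 88.2% in C4 and 75.6% in C5, so that by TPM NR4A3 led in both. Its TPM share was 76.8 (C1), 68.2 (C2) and 51.3% (C3), above that of NR4A2 there too, and 33.8% in C6.

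NR5A1 encodes the receptor known as steroidogenic factor, a gonadotroph factor that acts on the gonadotropin subunit genes and on GNRHR in the mouse, and NR0B1 encodes a partner that represses it. NR5A1 had 1 count in C4 and 0 in the other 5 libraries, where 3 counts would be 1.10 to 1.51 CPM. NR0B1 had 0 (C1), 1 (C2) and 0 counts (C3) and 7 (C4), 9 (C5) and 2 counts (C6). The ratio of C5 to C6 for NR0B1 was 3.69 (95% exact interval 0.763 to 35.1), so that these libraries were not separated. The known targets of NR5A1 in gonadotrophs were plentiful beside it. LHB was at 516 (C4), 2920.0 (C5) and 177 CPM (C6) and GNRHR at 15.8 (C4), 71.9 (C5) and 6.06 CPM (C6). NR5A1 could thus not be followed from these counts in libraries where GNRHR had 12 to 174 counts and LHB 350 to 7065. STAR and CYP11A1, targets of the adrenal and gonad, had 1 count each over all libraries.

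The 4 coregulator genes had a median ratio of 2.03, and the 17 receptor genes tested one of 6.13, a difference given as a description. NCOA1, NCOA2 and NCOA3 encode the steroid receptor coactivators. NCOA1 was at 50.2 (C1), 47.2 (C2) and 46.5 CPM (C3) and 29.8 (C4), 26.9 (C5) and 25.2 CPM (C6), a ratio of 1.99, just under the minimum of 2, and was not called (chi-square adjusted p = 2.07e-07). NCOA2 was at 51.5, 44.6 and 37.5 CPM and then 37.6, 28.5 and 24.7 CPM, and NCOA3 at 28.3, 23.1 and 30.7 CPM and then 17.1, 12.4 and 14.6 CPM. Both were called, with ratios of 2.08 and 2.47. NCOA3 was highest in C3 by counts but in C1 in TPM. NCOA2 was not called with the hormone genes left out of the totals, and NCOA3 neither there nor under DESeq2 size factors, while NCOA1 was called under TMM.

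NCOA1 took 35.2 to 41.1% of their counts, NCOA2 32.7 to 44.6% and NCOA3 18.3 to 26.7%, and for NCOA1 and NCOA3 the 95% Wilson intervals of all 6 libraries overlapped. For NCOA2 they overlapped too, with C3 at 27.6 to 38.1% and C4 at 37.7 to 51.6%. NCOR1, the corepressor gene, was at 54.0 (C1), 60.7 (C2) and 63.6 CPM (C3) and 58.2 (C4), 43.0 (C5) and 53.0 CPM (C6). Its ratio was 1.48 (95% exact interval 1.15 to 1.91), its adjusted p 0.0414 by the chi-square test, and its highest library changed with the scale. NCOR1 overlaps CENPV and PIGL in the RefSeq gene table, and ESRRA overlaps TRMT112, with the uncertainty given for THRA. Among C4 to C6 none of the 4 coregulator genes was called, against 40.1% of all features tested. Their chi-square adjusted p values were 0.0708 to 0.715 and their ratios 1.18 to 1.52. With 4 genes this is a description only.

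Other coregulators gave a mixed picture. Of 13 other coactivator genes tested, 11 were called, and of 8 other corepressor genes 5, against 80.9% of all features. Their median ratios of 2.97 and 2.34 were both below the 4.31 of all features. KAT2B, a histone acetyltransferase, was at 437 (C1), 446 (C2) and 398 CPM (C3), 140.5 and 68.2 CPM in C4 and C5, and 740.3 CPM in C6. PPARGC1A, a coactivator of mitochondrial genes, was at 155 CPM in C1 and 10.7 CPM in C5, a ratio of 14.4 (95% exact interval 9.70 to 22.4). NCOA7 was highest in C2 at 104 CPM by counts and in C1 in TPM. TBL1XR1, a subunit of the corepressor complexes that NCOR1 forms, was at 216 CPM in C1 and 55.8 CPM in C5. Of 15 other nuclear receptor genes, 4 had enough counts and all were called, as were 80.9% of all features, namely NR4A1, NR1D1, NR1D2 and NR2E1. The clock receptors NR1D1 and NR1D2 were at 15.4 and 16.5 CPM in C2 and at 2.48 CPM each in C5 by counts, and NR2E1, a receptor of neural progenitors, did not exceed 15.6 CPM.

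Levels between genes are given in the authors' TPM, a scale per length whose lengths are not known. In C1 the TPM per CPM was 8.00 for ESRRG, 0.0267 for THRA and 0.00260 for RXRA. The order of genes by TPM therefore rests on this divisor, and ESRRG ranked 13 by median CPM. Whether the order by TPM or by CPM lies nearer to transcript number was not tested. By median TPM over the 6 libraries RORA came first at 1646 (range 674 to 2934), followed by ESRRG at 154, NR2C2 at 134, NCOA1 at 128, NCOA3 at 102 and NCOA2 at 92.0. NR3C2 and NR3C1 followed at 56.9 and 47.7, with ranges of 40.0 to 114 and 16.5 to 119 that overlapped widely. This median pools libraries that differ in their TPM per CPM and in their tissue genes, and over C4 to C6 alone 9 of the 10 highest genes were shared. NR4A3 and ESR1, at medians of 4.54 and 4.05, spanned 0.950 to 206 and 2.04 to 86.7 TPM. THRA came to only 3.59 and NCOR1 to 1.70 TPM, although they ranked 3 and 5 among the 37 genes by median CPM. RXRA, at 0.00216 TPM, was 35th.

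The TPM values carry a factor of their own. Over 8245 features with at least 10 counts in every library, the median TPM per CPM relative to C1 was 1.08 in C2, 1.26 in C3, 2.36 in C4, 2.53 in C5 and 1.92 in C6. A gene level in CPM thus appears about that much higher in C4 to C6 in TPM. The departures from this factor stayed within a range of 0.2 log2 units over the libraries for 4776 of the 8245 features and for 3 of 15 receptor and coregulator genes, THRA, NR2F6 and NCOR1. NR4A2 departed furthest of the 15, by 1.66 log2 units in C4 and by -1.47 in C5. NCOA2 departed by -1.47 in C4 and NR3C2 by 0.83 in C3 and -1.10 in C6. The TPM per CPM of these genes was therefore not fixed across libraries. For NR4A2 the order of C4 and C5 in TPM was the reverse of that in counts. The same held for NR3C2, though C4 and C5 were not separated by its counts. For the rest of the 15 genes the order of C4 and C5 was the same in TPM and in counts. No source used here gives the lengths behind the TPM.

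**Figure D5:**
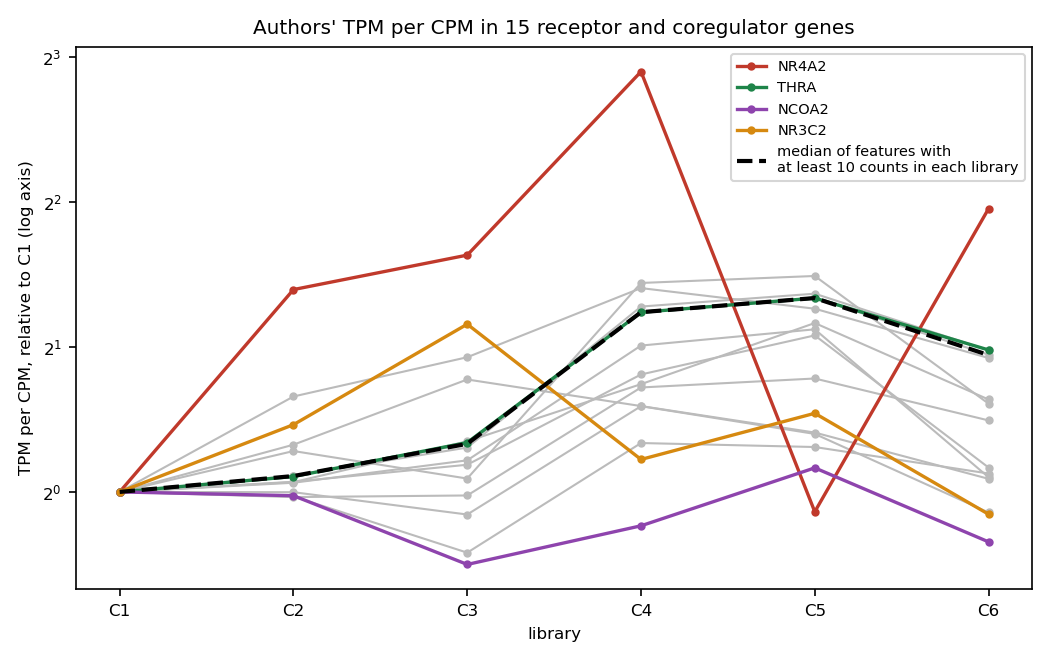
Lines give the authors' TPM per CPM relative to C1 (log axis) in the libraries C1 to C6 for the 15 receptor and coregulator genes with at least 10 counts in each, 4 of them in colour, and the dashed line is the median of 8245 features. THRA follows the dashed line, while NR4A2 lies above it in C4 and below it in C5, and NCOA2 lies below it in C3 to C6.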

How the data were processed

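Per the labels' protocols, total RNA was made into amplified full-length complementary DNA with Nanopore kits (SQK-PCS109, with SQK-PBK004). The submitters' processing notes name minimap2 2.17-r941. No source used here names the quantification tool, genome build, annotation or use of strand. The deposited estimated counts per gene are not normalized and were rounded to whole numbers. Every library of the authors' deposited TPM table adds up to 1000000. Of 26071 rows, 4 of annotation text were left out. All 37 genes matched a symbol in RefSeq's table for ARS-UI_Ramb_v3.0, which served for names and neighbours.

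The genes, the lists and the named genes were chosen with earlier results of these data known. Named were all 37 genes and up to 4 genes with at least 60 counts of each related list (2 by median CPM, 2 by ratio). Some genes that this rule selects are not reported here. Others were named after their values were seen, and the family shares were also added then. The chi-square test took the shares of the library totals as its null, with a minimum of 60 counts over 6 libraries or 30 over 3. Intervals are 95% Wilson or exact conditional (Clopper-Pearson) and cover counting error only, since amplified reads without molecular identifiers are not independent molecules. A count of 0 was set to 3 counts, per library, in a ratio. The test was tried on simulated Poisson counts, which checks the calculation only. Alternatives were TMM (edgeR 4.0.16) and DESeq2 1.42.0 size factors, totals without hormone genes, TPM, other minimums and ratios, thinned counts and left-out libraries. Python 3.11.15, scipy 1.17.1 and R 4.3.3 were used.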

Additional observations from a re-analysis of the deposited data

How the results depend on the processing

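No paired analysis was possible because the labels give the libraries no group and no shared number. The number called over C1 to C6 stayed within 1.5 times the 18 under every scaling, count minimum, ratio threshold and TPM setting tried. The same held with counts thinned to the smallest library. In these settings 52.7 to 91.5% of all features were called. With 1 library left out, 16 to 18 of 20 to 21 genes tested were called, against 73.9 to 78.9% of all features. Within C1, C2 and C3 alone 1 of 18 genes tested was called, against 11.0% of all features. Within C4, C5 and C6 alone 12 of 23 were called, against 40.1%. The called genes with their highest level in C1, C2 or C3 numbered 11 of 21 tested, against 43.1% of all features. They numbered 12 under TMM, 10 under DESeq2 size factors and 9 without the hormone genes in the totals. At a ratio of at least 4 they numbered 7, and with 1 library left out 10 to 11. Apart from the 11, the matching share of all features was not computed, so these counts are a description only. Among C4, C5 and C6 the 12 calls became 6 of 9 genes tested at a minimum of 200 counts, against 35.8% of all features. At a ratio of at least 4 they became 7 of 23, against 19.6% of all features. Leaving out 1 of these 3 libraries gave calls for 9 of 19 genes tested without C4, 7 of 22 without C5 and 6 of 21 without C6. The shares of all features called were then 32.3, 26.0 and 18.3%. The 10 highest genes by TPM shared 6 with the 10 highest by CPM. Genes detected in every library numbered 15, and 7 at 30 counts. Of the 20 single ratios with a 95% interval, 0 left it under TMM, 3 under DESeq2 factors, 3 without the hormone genes in the totals, and 9 in TPM, and the cause was not tested. The 16 genes below 60 counts had too few for the test over 6 libraries, and the cause of their low counts was not tested.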
